A study of Mus musculus with 9 samples.

Results

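The 52 genes described here act in mitosis and cell division. They comprise mitotic entry factors, Aurora and Polo kinases with the chromosomal passenger complex, spindle checkpoint proteins and mitotic kinesins. Kinetochore and centromere proteins, condensins, cytokinesis factors and spindle assembly factors make up the rest. The 52 were chosen by name from known function, with earlier results of these data known. All 52 were found among the 55536 gene identifiers of the count table, and all 52 passed the filter that left 14684 genes for testing. The lowest count of any of them in any library was 94, so none was near 0.

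The study asked how exosomes, small vesicles that cells secrete, of macrophages with or without apolipoprotein E (ApoE) affect the activation and growth of CD4+ T helper cells. The T cells were wild type in every group and came from spleens of male mice aged 6 to 12 weeks. All 9 cultures received antibody beads against CD3 and CD28 plus murine IL-2 at 5 ng/mL, so resting cells are not among the groups. Over the same 18 h, 3 cultures were given exosomes of wild-type BMDM (usually bone marrow-derived macrophages), called WT_exo here, 3 received exosomes of ApoE-deficient BMDM (EKO_exo), and 3 received phosphate-buffered saline (PBS). Exosomes were given at 2e+09 particles per mL, a single dose read at a single time. Whether replicate cultures were of separate mice is not in the labels, and p-values cover only the variation among the cultures sequenced.

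A T cell that receives signals through its antigen receptor, CD28 and the IL-2 receptor leaves rest, copies its DNA and then divides. As it approaches division, cyclin B binds and activates the kinase CDK1, condensins compact the chromosomes, kinesin motors and microtubule-binding proteins build a spindle, and kinetochores tie each chromosome to spindle fibres. The spindle checkpoint holds the cell until all kinetochores are attached, after which the anaphase-promoting complex releases the sister chromatids and a contractile ring splits the cell. Most of these genes are transcribed in late S phase, G2 and mitosis and kept low in resting cells.

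Total counts ran from 25792975 to 32971791 per library. The EKO_exo libraries had a count for fewer genes (19038 to 19518) than the other 6 (19989 to 20568), and EKO_exo replicate 3, replicate 1 and replicate 2 stood apart from all other libraries on principal components 1, 2 and 3 respectively. Results for EKO_exo are also given without replicates 1 and 3, which stood apart on the first 2 components. Replicate 2, which is kept there, stood apart too, so that fit is not free of such libraries. The CD4 T cell markers summed to 98.6 to 105.5% of the PBS mean in the exosome libraries, and Cd4 itself ranged from 819.6 to 897.4 CPM (counts relative to library size, scaled for composition). Markers of macrophages, which made the exosomes, summed to 24.5 CPM in PBS, 25.6 in WT_exo and 26.4 in EKO_exo, with Adgre1 at 0 in 6 libraries and Mrc1 in 5. Of 6 B cell markers only Ighm was high (416.9 to 484.0 CPM), while Cd79a, Cd79b, Ms4a1, Pax5 and Cd22 were at most 2.3 CPM. NK cell markers summed to at most 3.1 CPM, CD8 markers to at most 12.3, dendritic cell markers to at most 12.9 and erythroid markers to at most 1.16, with the hemoglobin genes at 0 in all 9 libraries. Klf1 was the only erythroid marker with counts in every library. Against PBS, 4 markers were called higher in EKO_exo (Cd3e 0.12, Cd5 0.11, Ighm 0.16 and the macrophage receptor gene Csf1r 1.38 on the log2 scale, the last from 0.87 to 2.28 CPM), and 1 lower in WT_exo (Gzma -2.40, from 1.03 to 0.191 CPM). The part of these cell types in the results below was not tested.

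Promoter sequence was taken from RefSeq (build GRCm38.p6), where 46 of the 52 genes had an entry. The 4 shown are those with the smallest p for EKO_exo against PBS that hold a CHR element, the cell cycle genes homology region through which MuvB complexes act on late cell cycle genes. Each runs 5' to 3' from 250 to 6 bases before the RefSeq start, and capitals mark the motifs searched on either strand: the CCAAT box, read as ATTGG on the other strand, the CHR element, which is TTTGAA (read as TTCAAA on the other strand) or the palindrome TTCGAA, and the E2F site. The E2F letters were TTTCCCGC (reverse complement GCGGGAAA), TTTCGCGC (reverse complement GCGCGAAA), TTTGCCGC (reverse complement GCGGCAAA) and TTTGGCGC (reverse complement GCGCCAAA). Matches of different motifs may overlap and each was counted. The regions are chr7:135716385-135716629 (minus strand), chr11:99024195-99024439 (minus strand), chr9:122950831-122951075 (plus strand) and chr12:116405186-116405430 (plus strand). For Kif15 and Ncapg2 the GENCODE M21 start lies inside the printed stretch, so its last 30 and 29 bases are transcribed in that annotation.
Mki67: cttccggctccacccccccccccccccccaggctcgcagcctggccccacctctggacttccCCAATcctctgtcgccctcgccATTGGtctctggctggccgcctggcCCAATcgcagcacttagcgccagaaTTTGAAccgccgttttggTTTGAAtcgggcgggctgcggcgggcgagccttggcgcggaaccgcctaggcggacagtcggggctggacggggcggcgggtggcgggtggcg
Top2a: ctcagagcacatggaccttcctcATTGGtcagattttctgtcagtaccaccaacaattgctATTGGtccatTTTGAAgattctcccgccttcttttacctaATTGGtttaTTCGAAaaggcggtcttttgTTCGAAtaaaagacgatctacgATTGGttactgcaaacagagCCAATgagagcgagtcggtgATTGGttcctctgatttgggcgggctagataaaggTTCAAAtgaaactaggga
Kif15: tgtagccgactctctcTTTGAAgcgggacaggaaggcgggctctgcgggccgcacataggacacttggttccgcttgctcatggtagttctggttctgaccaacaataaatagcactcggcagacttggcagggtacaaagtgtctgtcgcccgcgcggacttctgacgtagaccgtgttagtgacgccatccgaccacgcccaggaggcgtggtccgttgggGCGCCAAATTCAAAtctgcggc
Ncapg2: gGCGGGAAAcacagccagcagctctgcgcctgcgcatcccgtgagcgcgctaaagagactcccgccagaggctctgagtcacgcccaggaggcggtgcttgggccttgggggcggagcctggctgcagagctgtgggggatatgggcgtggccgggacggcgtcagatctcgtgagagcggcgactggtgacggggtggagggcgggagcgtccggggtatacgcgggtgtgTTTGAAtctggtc

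Mki67 held 3 CCAAT boxes and 2 CHR elements in this window. Top2a held 6 CCAAT boxes and 4 CHR elements. Kif15 and Ncapg2 held no CCAAT box, and each had an E2F site, which in Kif15 lies directly beside a CHR element. A CCAAT box was found upstream of 31 of 46 genes (67.4%), against 34.5% of the 27018 genes with a promoter in the same table. A CHR element was found in 17 of 46 (37.0% against 17.4%), an E2F site in 5 of 46 (10.9% against 1.91%), and a CCAAT box together with a CHR element in 14 of 46 (30.4% against 6.21%). Of several promoters, the one nearest the annotated 5' end was taken for the 46 genes and the first listed for all genes. The 27018 genes were not limited to those tested here. The motifs are letter matches, and binding was not measured. Responses with and without a motif lay close together. In WT_exo against PBS the median log2 fold change was -0.46 for the 17 genes with a CHR element and -0.44 for the 29 without, and in EKO_exo it was -0.48 and -0.44.

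Both exosome preparations went with lower mitosis transcripts. Summed over the 52 genes, RNA stood at 4059.2, 3991.1 and 3931.3 CPM in the PBS libraries, 3026.9, 3089.3 and 2907.1 in WT_exo and 2994.0, 3117.7 and 3114.7 in EKO_exo. Every exosome library lay below every PBS library, at 72.8 to 78.1% of the PBS mean. In bulk RNA, fewer cells near division and less of these RNAs in each such cell cannot be told apart.

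Gene by gene, 42 of 52 fell in WT_exo and 10 were not called, while 44 of 52 fell in EKO_exo and 8 were not called (edgeR quasi-likelihood test, Benjamini-Hochberg adjusted p under 0.05 over all 14684 genes). Among all genes tested, 3.14% were called lower in WT_exo and 2.87% in EKO_exo. No member was called higher, against 1.83% and 2.21% of all genes. The median log2 fold change of the 52 was -0.45 in WT_exo, a level 26.9% lower, and -0.44 in EKO_exo, 26.4% lower, where the median over all genes tested was 0.00 in both. All 52 estimates were below 0 in either comparison, against 49.2% and 50% of all genes, though those of Kif18a and Cenpa in EKO_exo were close to 0 and turned positive without some libraries (Kif18a 0.071 without EKO_exo replicate 1, 0.044 without PBS replicate 3 and 0.003 without EKO_exo replicate 3, Cenpa 0.016 without PBS replicate 1 and 0.002 without EKO_exo replicate 3). In 47 of 52 genes the 3 exosome libraries all lay below the 3 PBS libraries, in WT_exo as in EKO_exo, against 11.6% and 10.6% of all genes. Both comparisons use the same 3 PBS libraries and so are not independent of each other.

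The members made up 0.354% of the genes tested, 9.11% of the 461 called lower in WT_exo and 10.5% of the 421 called lower in EKO_exo. Among the 50 genes with the smallest p that were lower, 11 were members in WT_exo and 10 in EKO_exo, and Mki67 had the smallest p of all genes in both. The falls were modest in size, from -0.17 to -0.75 on the log2 scale among called members in WT_exo and from -0.16 to -0.79 in EKO_exo. Without EKO_exo replicates 1 and 3 the EKO_exo median was -0.41, 22 members were called and 50 of 52 estimates were below 0, Kif18a (0.19) and Cenpa (0.10) being the exceptions. That fit has 1 EKO_exo library, which is assumed to vary like those of the other groups. Leaving out any single library left 34 to 43 members called in WT_exo and 30 to 43 in EKO_exo, and 31 of the 42 and 27 of the 44 calls held in every one of those 9 fits. Genes that lost a call are named with their roles below.

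**Figure D1:**
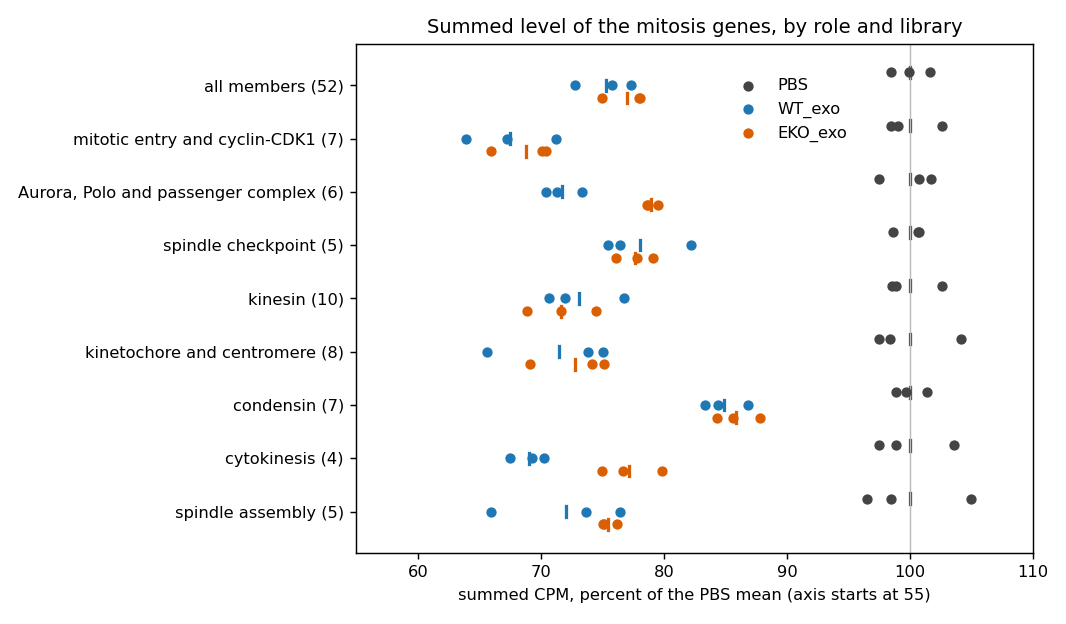
Summed CPM of the 52 genes and of each of the 8 roles, as percent of the PBS mean, with 1 point per library and a tick at each group mean (the axis starts at 55). All exosome libraries lie below all PBS libraries in every role, with the condensin sums nearest to PBS (83.4 to 87.8%, and 76.4 to 81.5% without Smc4).

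**Figure D2:**
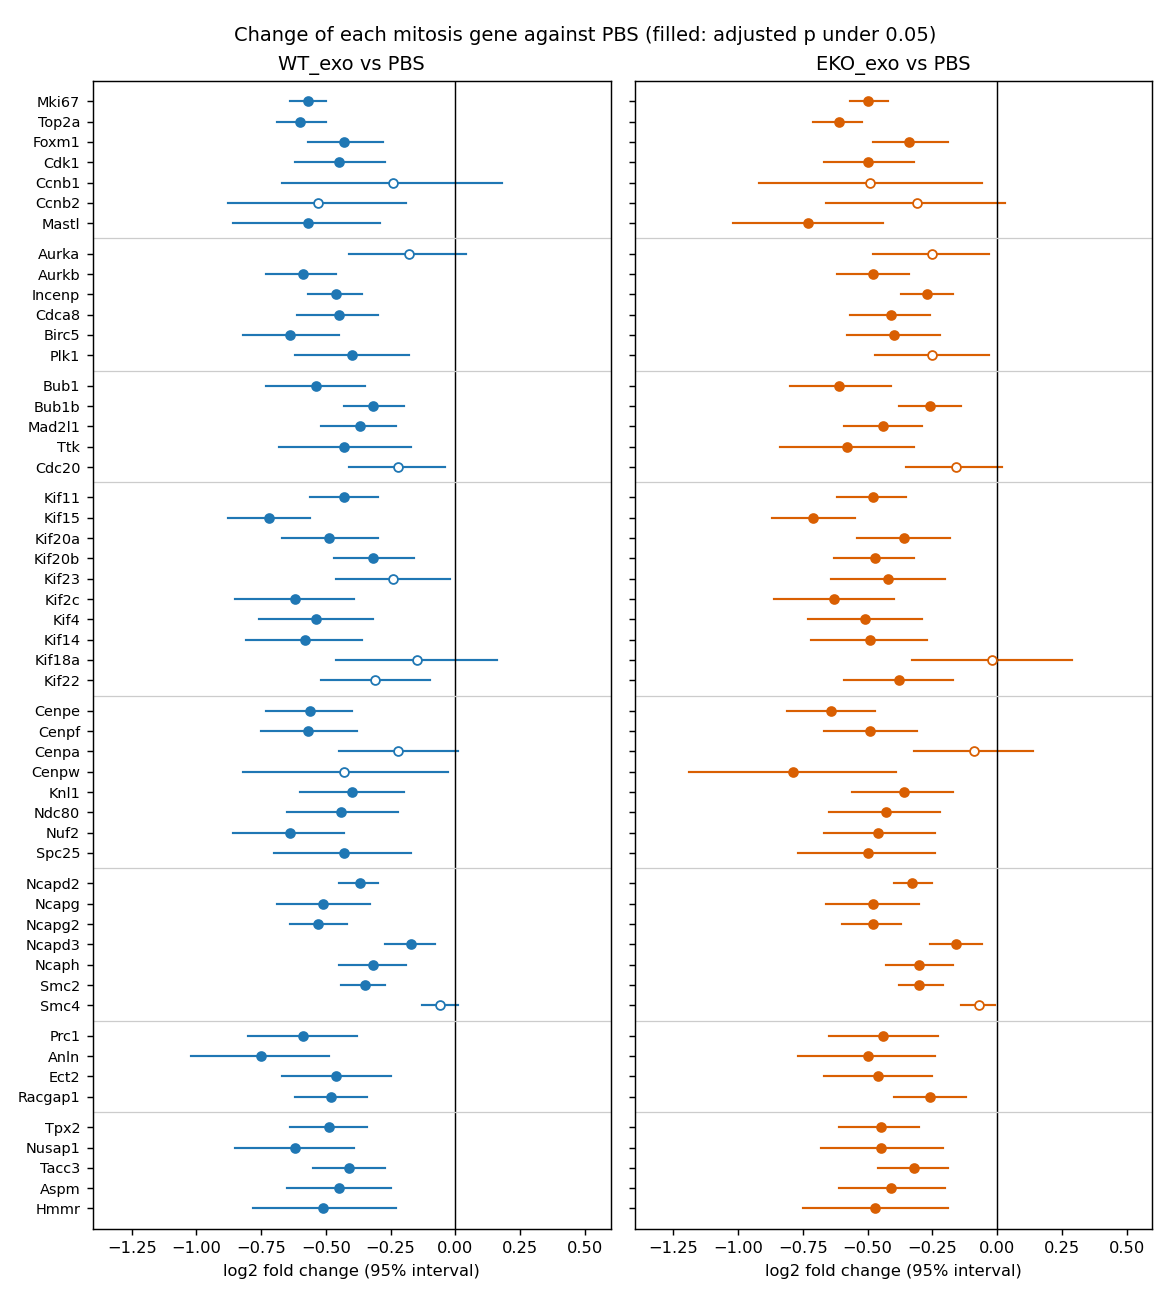
Log2 fold change of each of the 52 genes with its 95% interval, WT_exo against PBS on the left and EKO_exo against PBS on the right, in the order of the 8 roles separated by grey lines. Filled points passed an adjusted p of 0.05: 42 in WT_exo and 44 in EKO_exo, all to the left of 0.

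The role of mitotic entry and cyclin-CDK1, which here includes Mki67 and Top2a, had the lowest sums relative to PBS, 67.5% in WT_exo and 68.8% in EKO_exo. Of 7, 5 fell in each comparison, with median log2 fold changes of -0.53 and -0.50. Mki67 (mean 488.9 CPM) and Top2a (490.9) made up most of the PBS sum of 1109.2. Those percentages, and the rank as lowest, rest on them and do not describe the cyclin B and Cdk1 genes. Mki67, which coats mitotic chromosomes and is the usual label of cycling cells, stood at 497.3, 485.5 and 483.8 CPM in PBS, 327.9, 342.8 and 317.5 in WT_exo and 342.5, 341.2 and 356.4 in EKO_exo. The replicates were tight and the PBS libraries lay far above the other 6. Its log2 fold change was -0.57 ± 0.035 (SE, adjusted p = 2.02e-11) in WT_exo and -0.50 ± 0.035 (adjusted p = 6.06e-10) in EKO_exo. Top2a, the topoisomerase that untangles sister chromatids, stood at 504.8, 481.3 and 486.6 CPM in PBS, 321.0, 348.5 and 302.5 in WT_exo and 293.5, 339.8 and 330.2 in EKO_exo. Again no exosome library reached a PBS library, with log2 fold changes of -0.60 ± 0.046 (adjusted p = 1.67e-09) and -0.61 ± 0.046 (adjusted p = 1.46e-09).

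Cdk1, the kinase that drives entry into mitosis, fell from 50.6, 48.7 and 42.1 CPM in PBS to 36.7, 35.1 and 31.9 in WT_exo and 31.3, 35.4 and 33.4 in EKO_exo. Its log2 fold changes were -0.45 ± 0.084 (adjusted p = 0.00108) and -0.50 ± 0.085 (adjusted p = 0.00042). Foxm1, a transcription factor of G2 and mitosis genes, fell by 0.43 and 0.34 on the log2 scale (adjusted p = 0.000351 and 0.00442). Mastl, the Greatwall kinase that restrains the phosphatase opposing CDK1, fell by 0.57 and 0.73 (adjusted p = 0.0117 and 0.00147). The cyclin B genes, whose products activate CDK1, were low and varied more. Ccnb1 was at 6.06, 5.49 and 5.08 CPM in PBS, 5.08, 5.51 and 3.46 in WT_exo and 3.60, 3.99 and 4.25 in EKO_exo, and Ccnb2 at 10.6, 7.30 and 10.7, then 7.05, 6.37 and 6.28, then 7.80, 8.64 and 6.54. Neither passed the test (adjusted p = 0.663 and 0.214 for Ccnb1, 0.0689 and 0.354 for Ccnb2). Pseudogenes of both exist in the annotation, and whether reads were split between copies was not tested. In WT_exo Ccnb2 was near the threshold. It passed with all libraries kept in DESeq2 (adjusted p = 0.0454), with a filter of a mean of at least 5 CPM (edgeR adjusted p = 0.0492) and with only the 2 groups compared (0.0315), and also without PBS replicate 2 (log2 fold change -0.69), EKO_exo replicate 3 or EKO_exo replicates 1 and 3. The WT_exo call of Mastl was lost without PBS replicate 1, PBS replicate 2 or WT_exo replicate 1 (adjusted p up to 0.142), and that of Cdk1 in EKO_exo without EKO_exo replicates 1 and 3 (adjusted p = 0.0694), where 4 of 7 remained called at a median of -0.47.

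Among 6 Aurora, Polo and passenger complex genes, 5 fell in WT_exo (median -0.46) and 4 in EKO_exo (median -0.33). Aurkb, the kinase subunit of the passenger complex that corrects faulty chromosome attachments, stood at 64.8, 66.7 and 64.5 CPM in PBS, 44.3, 42.3 and 43.1 in WT_exo and 43.1, 49.1 and 47.9 in EKO_exo. The PBS libraries were clearly above the rest, and the log2 fold changes were -0.59 ± 0.068 (adjusted p = 1.51e-06) and -0.48 ± 0.068 (adjusted p = 4.62e-05). Incenp, the scaffold of the complex, stood at 128.3, 132.5 and 127.1 CPM in PBS, 96.0, 94.2 and 91.1 in WT_exo and 113.3, 102.8 and 106.0 in EKO_exo. Here the 3 groups were in order without overlap, with log2 fold changes from PBS of -0.46 ± 0.050 (adjusted p = 5.6e-07) in WT_exo and -0.27 ± 0.050 (adjusted p = 0.00098) in EKO_exo. The other subunits also fell, Birc5 (survivin) by 0.64 and 0.40 and Cdca8 (borealin) by 0.45 and 0.41 on the log2 scale.

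Plk1, the Polo kinase of mitotic entry and spindle poles, stood at 35.7, 32.6 and 29.0 CPM in PBS, 23.2, 28.6 and 22.1 in WT_exo and 24.1, 30.7 and 27.2 in EKO_exo. It fell in WT_exo (-0.40 ± 0.107, adjusted p = 0.0259) and was not called in EKO_exo (-0.25 ± 0.107, adjusted p = 0.223), where its libraries overlapped PBS. Aurka, the Aurora kinase of the spindle poles, was not called in either (-0.18 and -0.25, adjusted p = 0.452 and 0.219). The WT_exo call of Plk1 was lost without PBS replicate 1 or 2 or WT_exo replicate 1 or 3 (adjusted p up to 0.201), and the EKO_exo call of Birc5 without PBS replicate 1 (adjusted p = 0.0638). Without EKO_exo replicates 1 and 3 the EKO_exo calls were 2 of 6, with Birc5 at an adjusted p of 0.066 and Cdca8 at 0.0687, and the median was -0.40.

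Of 5 spindle checkpoint genes, 4 fell in each comparison, with medians of -0.37 in WT_exo and -0.44 in EKO_exo. Bub1, a kinase that recruits checkpoint proteins to kinetochores, stood at 37.5, 38.9 and 35.9 CPM in PBS, 26.3, 29.0 and 22.1 in WT_exo and 23.5, 24.7 and 25.6 in EKO_exo. No exosome library reached PBS, and the log2 fold changes were -0.54 ± 0.094 (adjusted p = 0.000521) and -0.61 ± 0.095 (adjusted p = 0.000162). Mad2l1, the protein that holds back Cdc20 until kinetochores attach, fell by 0.37 and 0.44 on the log2 scale (adjusted p = 0.00117 and 0.000229), and Bub1b (BubR1, its partner) by 0.32 and 0.26 (adjusted p = 0.000823 and 0.00707). Ttk, the Mps1 kinase that starts the checkpoint signal, fell by 0.43 and 0.58 (adjusted p = 0.0421 and 0.0046).

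Cdc20, the checkpoint's target and activator of the anaphase-promoting complex, was the exception. It stood at 31.9, 34.8 and 31.5 CPM in PBS, 29.3, 29.3 and 25.6 in WT_exo and 26.8, 29.6 and 31.4 in EKO_exo. All exosome libraries were below PBS by a narrow margin, and the test was not passed (-0.22 and -0.16, adjusted p = 0.197 and 0.381). The WT_exo call of Ttk was lost without PBS replicate 1 or 2 or WT_exo replicate 1 or 3 (adjusted p up to 0.225), and its EKO_exo call without EKO_exo replicates 1 and 3 (adjusted p = 0.19), where 3 of 5 genes were called.

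Of the 10 kinesins, 7 fell in WT_exo (median -0.46) and 9 in EKO_exo (median -0.48). Kif15, a motor that helps keep spindle poles apart, had the largest fall of this role in both. It stood at 54.3, 58.1 and 54.4 CPM in PBS, 33.7, 37.0 and 30.5 in WT_exo and 33.2, 33.6 and 35.1 in EKO_exo. The gap to PBS was wide, at -0.72 ± 0.078 (adjusted p = 6.08e-07) and -0.71 ± 0.079 (adjusted p = 1.66e-06). Kif11 (Eg5), the main motor of spindle bipolarity, stood at 98.8, 92.5 and 89.1 CPM in PBS, 72.4, 73.8 and 61.8 in WT_exo and 65.4, 65.0 and 69.9 in EKO_exo. It also showed no overlap with PBS (-0.43 ± 0.065, adjusted p = 8.33e-05, and -0.48 ± 0.066, adjusted p = 2.55e-05).

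Kif2c (MCAK), which depolymerises microtubules at centromeres, fell by 0.62 and 0.63 on the log2 scale (adjusted p = 0.000677 and 0.000605). The chromosome arm motor Kif4 fell by 0.54 and 0.51, and the cytokinesis motors Kif14 by 0.58 and 0.49, Kif20a by 0.49 and 0.36 and Kif20b by 0.32 and 0.47. Kif23, the motor of the centralspindlin complex, was not called in WT_exo (-0.24, adjusted p = 0.249) and fell in EKO_exo (-0.42, adjusted p = 0.0203). Kif22, another chromosome arm motor, was likewise not called in WT_exo (-0.31, adjusted p = 0.0843) and fell in EKO_exo (-0.38, adjusted p = 0.0279). These contrasts with PBS do not show that the exosome groups differ, and the direct tests of Kif23 and Kif22 gave adjusted p = 0.787 and 0.938. Kif18a, which damps chromosome movements at the metaphase plate, was the one kinesin called in neither: it stood at 9.40, 8.25 and 10.0 CPM in PBS, 8.93, 8.39 and 7.56 in WT_exo and 7.98, 10.5 and 8.87 in EKO_exo. Its groups overlapped throughout (-0.15 ± 0.151 and -0.02 ± 0.151).

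Some kinesin calls were lost when 1 library was left out, while the estimates stayed below 0. For Kif22 in EKO_exo they were -0.326 to -0.387 in the fits that lost its call. In EKO_exo that of Kif20a was lost without PBS replicate 1 or EKO_exo replicate 1 (adjusted p up to 0.112), that of Kif23 without PBS replicate 1 or 2 or EKO_exo replicate 1 (up to 0.0963), and that of Kif22 without PBS replicate 1 or 2 or EKO_exo replicate 1 or 2 (up to 0.121). The WT_exo call of Kif20b was lost without PBS replicate 1 or WT_exo replicate 1 (up to 0.102). Kif22 was near the threshold in WT_exo: it passed with all libraries kept under no filter (edgeR adjusted p = 0.0355), a mean of at least 5 CPM (0.0311) and only the 2 groups compared (0.0335), and also without WT_exo replicate 3 (log2 fold change -0.48) or without EKO_exo replicates 1 and 3. Only 4 of 10 kinesins were called in EKO_exo without its replicates 1 and 3, at a median of -0.46, with Kif2c (adjusted p = 0.0572), Kif20a (0.093), Kif22 (0.248), Kif4 (0.31) and Kif23 (0.397) lost. Kif20a shares 29.3% of its exon bases with Cdc23 and Kif4 shares 15.1% with Pdzd11, both on the opposite strand. Whether counting used strand is not given in the sources used here, so these levels may include reads of the partner.

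Of 8 kinetochore and centromere genes, 6 fell in WT_exo (median -0.44) and 7 in EKO_exo (median -0.47). Cenpe, a kinetochore motor that carries chromosomes to the spindle equator, stood at 63.3, 56.6 and 57.6 CPM in PBS, 41.2, 43.3 and 35.7 in WT_exo and 34.4, 38.2 and 41.4 in EKO_exo. It fell by 0.56 ± 0.082 (SE) and 0.64 ± 0.083 on the log2 scale (adjusted p = 5.7e-05 and 1.31e-05). The related corona protein gene Cenpf fell by 0.57 and 0.49 (adjusted p = 0.000144 and 0.000833). The outer kinetochore genes among the 52 also fell: of the microtubule-binding Ndc80 complex Ndc80 by 0.44 and 0.43, Nuf2 by 0.64 and 0.46 and Spc25 by 0.43 and 0.50, and their platform Knl1 by 0.40 and 0.36. Outer kinetochore genes outside the 52, named after their values were seen, did not all do so. Spc24, the other Ndc80 complex gene, fell in WT_exo (-0.41, adjusted p = 0.00809) and was not called in EKO_exo (-0.30, adjusted p = 0.0625). Of the MIS12 complex, Mis12 and Dsn1 were called in neither (-0.12 and -0.11, then -0.10 and -0.06). In EKO_exo its gene Nsl1 fell (-0.36, adjusted p = 0.0349) and its gene Pmf1 was not called (-0.23, adjusted p = 0.058).

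The centromeric histone gene and its neighbour at the inner kinetochore gave the weakest and the strongest estimate of this role in EKO_exo. Cenpa, the histone variant that marks the centromere, stood at 28.1, 22.3 and 23.6 CPM in PBS, 21.8, 23.0 and 18.9 in WT_exo and 23.0, 26.5 and 20.3 in EKO_exo. The groups overlapped and neither comparison was called (-0.22 ± 0.112, adjusted p = 0.364, and -0.09 ± 0.112, adjusted p = 0.777). Cenpw, a DNA-binding protein of the inner kinetochore, stood at 7.85, 6.79 and 6.06 CPM in PBS, 5.37, 4.76 and 5.25 in WT_exo and 4.45, 4.42 and 3.12 in EKO_exo. It had the largest fall of all members in EKO_exo (-0.79 ± 0.196, adjusted p = 0.0148), with the widest error of those called, and was not called in WT_exo (-0.43 ± 0.192, adjusted p = 0.259). Its EKO_exo call was lost without PBS replicate 1 or 2 or EKO_exo replicate 3 (adjusted p up to 0.107).

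Calls of the outer kinetochore genes were also sensitive to single libraries. In EKO_exo, Knl1 lost its call without any 1 of the PBS libraries or EKO_exo replicate 1 (adjusted p up to 0.117), Ndc80 without PBS replicate 1 or 2 or EKO_exo replicate 1 (0.112), Spc25 without PBS replicate 2 or 3 or EKO_exo replicate 1 (0.126) and Nuf2 without PBS replicate 2 or EKO_exo replicate 2 (0.06). In WT_exo, Spc25 lost its call without any 1 of the PBS or WT_exo libraries or EKO_exo replicate 2 (adjusted p up to 0.188), Ndc80 without PBS replicate 1 or WT_exo replicate 2 or 3 (0.105), and Knl1 without PBS replicate 3 or WT_exo replicate 3 (0.102). Leaving out EKO_exo replicates 1 and 3 together left 3 of 8 genes called and a median of -0.53, with Spc25 (adjusted p = 0.253), Cenpw (0.279), Knl1 (0.468) and Ndc80 (0.546) lost.

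The condensins kept the highest share of their PBS level, 84.9% in WT_exo and 85.9% in EKO_exo, although 6 of 7 fell in each comparison (medians -0.35 and -0.30). That share rests on Smc4, which made up 38.3% of their sum in PBS: the other 6 stood at 78.1% and 80.3%, near the spindle checkpoint genes at 78.0% and 77.7%. Differences between roles were not tested. Condensin complexes share the paired ATPases Smc2 and Smc4 and differ in their other subunits. Ncapd2 of condensin I stood at 251.1, 255.8 and 249.1 CPM in PBS, 190.0, 197.3 and 195.7 in WT_exo and 196.9, 204.5 and 201.7 in EKO_exo. The spread was small beside the gap, with log2 fold changes of -0.37 ± 0.038 (adjusted p = 2.52e-07) and -0.33 ± 0.038 (adjusted p = 2.95e-06). Its partners Ncapg fell by 0.51 and 0.48 and Ncaph by 0.32 and 0.30 on the log2 scale. Ncapg shares 13.4% of its exon bases with Lcorl on the opposite strand, so its level may include reads of that gene.

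In condensin II, Ncapg2 stood at 125.8, 116.4 and 116.1 CPM in PBS, 84.0, 85.0 and 79.3 in WT_exo and 81.7, 89.0 and 85.4 in EKO_exo, a fall of 0.53 ± 0.054 (SE) and 0.48 ± 0.054 on the log2 scale (adjusted p = 2.62e-07 and 1.66e-06). Ncapd3, the other condensin II gene here, moved much less: 150.9, 146.1 and 145.2 CPM in PBS, 136.2, 130.3 and 126.0 in WT_exo and 124.4, 134.8 and 136.4 in EKO_exo. It passed narrowly (-0.17 ± 0.047, adjusted p = 0.0287, and -0.16 ± 0.047, adjusted p = 0.0448). Ncaph2, which completes condensin II and is not one of the 52, was not called (-0.13 and -0.12, adjusted p = 0.0688 and 0.0771).

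The paired ATPases parted. Smc2 stood at 184.3, 177.8 and 176.8 CPM in PBS, 147.5, 137.9 and 136.1 in WT_exo and 148.2, 146.8 and 144.1 in EKO_exo, with no overlap (-0.35 ± 0.044, adjusted p = 4.55e-06, and -0.30 ± 0.044, adjusted p = 8.45e-05). Smc4 stood at 505.3, 505.5 and 505.8 CPM in PBS, 503.5, 470.9 and 478.3 in WT_exo and 467.3, 495.3 and 478.0 in EKO_exo. Its exosome libraries were just below PBS and it was not called, with log2 fold changes of -0.06 (95% interval -0.13 to 0.01, adjusted p = 0.371) and -0.07 (-0.14 to -0.01, adjusted p = 0.23). The intervals of Smc4 and Smc2 do not meet in either comparison, though the difference between the genes was not itself tested. Ncapd3 lost its EKO_exo call without any single library but EKO_exo replicate 3 (adjusted p up to 0.215), and also with all libraries kept under RLE scaling factors (0.0501) or with only the 2 groups compared (0.0678). It lost its WT_exo call without any 1 of the PBS libraries or WT_exo replicate 2 or 3 (up to 0.18). Without EKO_exo replicates 1 and 3, Ncapd3 (adjusted p = 0.42) and Ncaph (0.0618) were lost and 4 of 7 remained.

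All 4 cytokinesis genes fell in both comparisons, with medians of -0.54 in WT_exo and -0.45 in EKO_exo. Anln (anillin), which organises the contractile ring, stood at 16.8, 24.6 and 18.0 CPM in PBS, 11.2, 11.7 and 12.2 in WT_exo and 13.4, 13.8 and 14.6 in EKO_exo. PBS replicate 2 was well above the other PBS libraries, and all 6 exosome libraries were below them (-0.75 ± 0.130, adjusted p = 0.000422, and -0.50 ± 0.129, adjusted p = 0.0182). Ect2, the exchange factor that switches on RhoA at the division plane, stood at 31.4, 31.5 and 31.9 CPM in PBS, 25.8, 21.8 and 21.3 in WT_exo and 19.6, 23.9 and 25.5 in EKO_exo. It fell by 0.46 on the log2 scale in both (adjusted p = 0.00565 and 0.00639).

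Racgap1, the centralspindlin partner of Kif23, stood at 57.2, 55.9 and 56.5 CPM in PBS, 42.4, 39.1 and 40.2 in WT_exo and 48.0, 45.9 and 48.1 in EKO_exo. The 3 groups did not overlap (-0.48 ± 0.068, adjusted p = 3.89e-05, and -0.26 ± 0.068, adjusted p = 0.023). Prc1, which bundles the central spindle, fell by 0.59 and 0.44 (adjusted p = 0.000431 and 0.00869), and shares 11.1% of its exon bases with Rccd1 on the opposite strand. The EKO_exo call of Anln was lost without PBS replicate 2 or EKO_exo replicate 1 or 2 (adjusted p up to 0.249), that of Ect2 without EKO_exo replicate 1 (0.0549), that of Racgap1 without any 1 of the PBS libraries or EKO_exo replicate 2 (0.0998), and that of Prc1 without PBS replicate 2 (0.0585). The WT_exo call of Ect2 was lost without WT_exo replicate 3 (0.0586). None of the 4 was called in EKO_exo without replicates 1 and 3 (adjusted p = 0.139 to 0.193), at a median of -0.42.

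All 5 spindle assembly genes also fell in both, with medians of -0.49 and -0.45. Tpx2, which activates Aurora A and nucleates microtubules around chromosomes, stood at 64.7, 71.3 and 63.6 CPM in PBS, 50.2, 50.2 and 42.2 in WT_exo and 47.6, 49.5 and 48.5 in EKO_exo. The PBS libraries were all higher (-0.49 ± 0.073, adjusted p = 8.1e-05, and -0.45 ± 0.073, adjusted p = 0.000217). Nusap1, a microtubule binder near chromosomes, fell by 0.62 and 0.45 on the log2 scale, Tacc3, a spindle fibre stabiliser, by 0.41 and 0.32, Aspm, which focuses spindle poles, by 0.45 and 0.41, and Hmmr, another spindle pole protein, by 0.51 and 0.47. The largest adjusted p among them was 0.0379, for Hmmr in EKO_exo.

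Hmmr was also the least stable of this role: its EKO_exo call was lost without any 1 of the PBS libraries, WT_exo replicate 2 or EKO_exo replicate 2 or 3 (adjusted p up to 0.179), and its WT_exo call without any 1 of the PBS libraries or WT_exo replicate 2 or 3 (up to 0.189). Aspm lost its EKO_exo call without PBS replicate 2 or 3 or EKO_exo replicate 2 (up to 0.0653) and its WT_exo call without WT_exo replicate 3 (0.0571), and Nusap1 its EKO_exo call without PBS replicate 2 or EKO_exo replicate 1 (up to 0.196). With EKO_exo replicates 1 and 3 both left out, 2 of 5 were called at a median of -0.43, with Tacc3 (adjusted p = 0.175), Hmmr (0.175) and Nusap1 (0.279) lost.

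**Figure D3:**
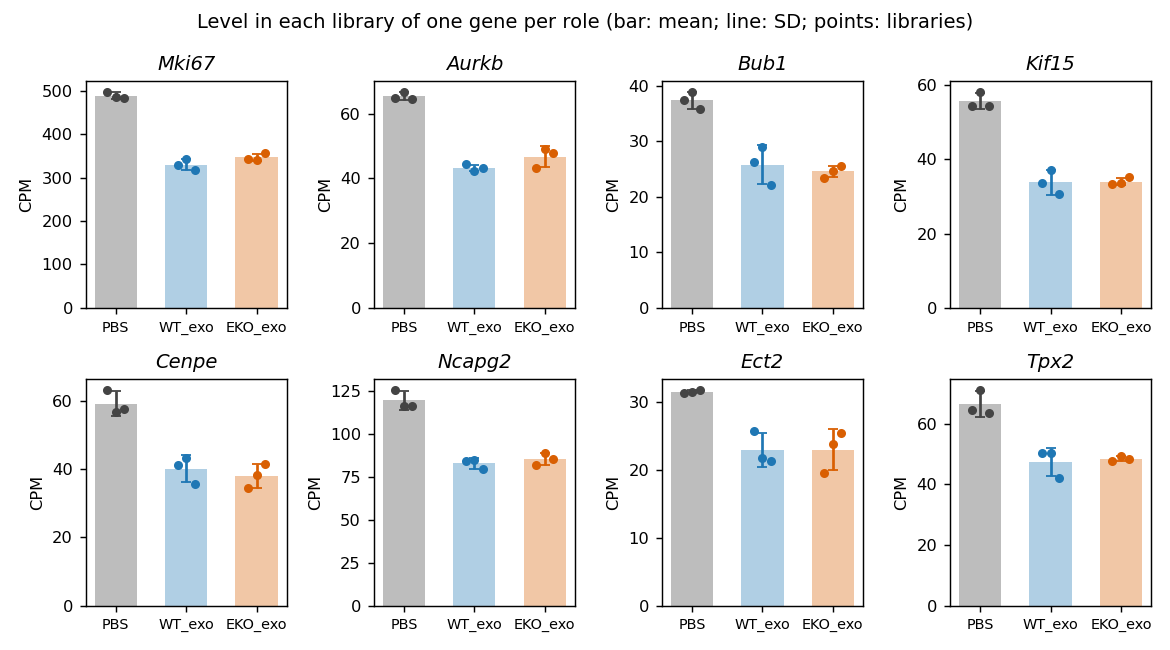
CPM in each library for the gene of each role with the smallest p for EKO_exo against PBS (bars are means, lines are SD, points are the 3 libraries of a group). For each of the 8 genes every exosome library is below every PBS library, as for Mki67 at 317.5 to 356.4 against 483.8 to 497.3.

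Per kilobase of the principal transcript, a scale on which genes can be compared, the highest levels in PBS were Smc4 (117.1 CPM per kb), Top2a (94.0), Ncapd2 (54.4), Mki67 (48.6) and Birc5 (41.2), and the lowest were Ccnb1 (2.23), Kif14 (2.39) and Mastl (2.62). Across the 52 genes, Spearman's rho of the log2 fold change with CPM per kb in PBS was 0.13 in WT_exo and 0.37 in EKO_exo. With CPM in PBS it was 0.06 and 0.2, and with the length of the principal transcript -0.16 and -0.28. These values only describe genes that share the same libraries, and the PBS level enters both the fold change and the CPM measures. The uncalled members included genes of low level (Ccnb1, Ccnb2, Kif18a) and the gene at the highest level (Smc4). The lowest PBS mean of a called member was 14.6 CPM in WT_exo (Mastl) and 6.90 in EKO_exo (Cenpw).

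The exosome groups were then compared directly, the contrast that bears on ApoE. None of the 52 genes passed in either direction (edgeR quasi-likelihood), where 0.0341% of all genes, 5 of 14684, were called (0.00681% lower and 0.0272% higher). At an unadjusted edgeR p under 0.05 there were 4 members (Incenp, Racgap1, Birc5 and Mki67), a share close to the 7.08% of all genes. DESeq2 called 1 member, Incenp, against 0.828% of the 3866 genes to which it gave an adjusted p. The median log2 fold change of EKO_exo over WT_exo was 0.03, with 35 estimates above 0 and 17 below, and it changed sign, to -0.002, without WT_exo replicate 3. The 95% intervals reached 0.07 to 0.44 to either side of the estimate, with a median of 0.19, and for 48 of 52 genes they lay within 0.5 of 0 on the log2 scale. A failed test does not show that the preparations act alike, but for these 48 the intervals leave out differences beyond that size. That size exceeds the median change of the members against PBS (-0.45 in WT_exo and -0.44 in EKO_exo). Each interval is for 1 gene alone.

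In 5 genes the exosome groups did not overlap. Incenp, Birc5, Anln and Racgap1 were higher in all 3 EKO_exo libraries (5.88% of all genes did this) and Cenpw was lower in all 3 (5.97% of all genes). The share of members was near that of all genes for the higher ones and under it for the lower. These counts therefore do not set the members apart from other genes. Incenp, with the smallest p, had a mean of 93.8 ± 2.49 CPM (SD, n = 3) in WT_exo and 107.4 ± 5.37 in EKO_exo, a log2 fold change of 0.20 ± 0.050 (unadjusted p = 0.000579, edgeR adjusted p = 0.283). The range of its edgeR adjusted p over the other settings was 0.118 to 0.82, and in DESeq2 it was 0.0202. Birc5 was at 25.1 ± 2.63 and 29.6 ± 0.982 CPM (0.24 ± 0.091, adjusted p = 0.603), and Racgap1 at 40.6 ± 1.66 and 47.3 ± 1.28 (0.22 ± 0.069, adjusted p = 0.432). These 3 had the smallest unadjusted p of the members, all short of the threshold in edgeR, while Cenpw (-0.36) and Anln (0.25) had larger estimates with wider errors. Of the other genes of the same complexes, Cdca8 was at 0.04, Aurkb at 0.11 and Kif23 at -0.18, none of them called.

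**Figure D4:**
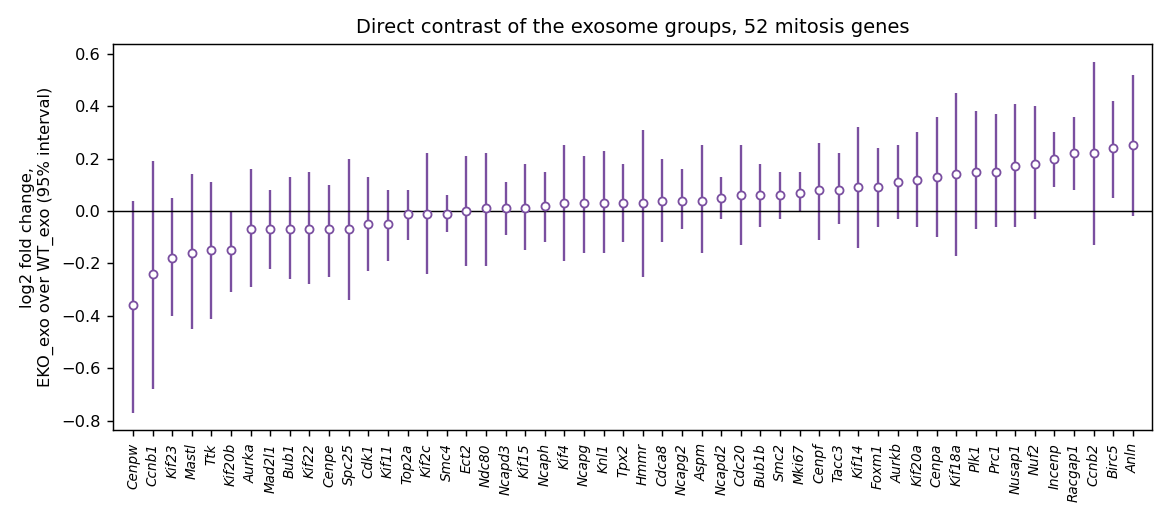
Log2 fold change of EKO_exo over WT_exo for each of the 52 genes with its 95% interval, sorted by estimate from Cenpw (-0.36) to Anln (0.25). Open points mark that none passed an adjusted p of 0.05, and 48 of the intervals lie within 0.5 of 0.

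Other genes of the same pathways were also listed by known function, with earlier results of these data known. How far that choice shapes the gap between the members and these lists was not tested. In 9 further lists of mitosis genes (149 genes, all tested), 40 were lower and 1 higher in WT_exo, at a median log2 fold change of -0.16, and 35 were lower and 0 higher in EKO_exo, at a median of -0.15. Differences between lists were not tested. Among 5 other kinesins of dividing cells, 2 fell in each comparison, among them Kif18b (-0.53 and -0.49, adjusted p = 0.000142 and 0.000441). Of 18 kinesins of cargo transport that could be tested, out of 20 listed, none fell. Among all genes 3.14% were called lower in WT_exo and 2.87% in EKO_exo, a share too small for so short a list to fall below. Klc2, a kinesin light chain, and Kif21b were higher in EKO_exo (0.37, adjusted p = 0.0222, and 0.13, adjusted p = 0.0448) and were not called in WT_exo (0.30 and 0.05).

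Of 32 other kinetochore and centromere genes, 10 fell in WT_exo and 8 in EKO_exo. They included the checkpoint-recruiting Kntc1 (-0.53 and -0.42), Zwilch (-0.47 and -0.52) and Hjurp, the chaperone that deposits Cenpa (-0.25 and -0.30, adjusted p = 0.00022 and 3e-05). None of 7 other checkpoint genes was called, a list too short to be told apart from all genes by this. Of 17 cohesin and separase genes, 7 fell and Mau2, a cohesin loader, rose in WT_exo (0.21, adjusted p = 0.0375), and 4 fell in EKO_exo. Espl1 (separase, -0.48 and -0.37), Sgo2a, a protector of centromeric cohesin (-0.40 and -0.59), and Esco2, the S phase cohesin acetyltransferase (-0.42 and -0.65), fell in both.

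In the anaphase-promoting complex 2 of 18 genes fell in WT_exo and 3 in EKO_exo, among them the subunit Anapc5 (-0.22 and -0.21) and the mitotic ubiquitin-conjugating enzyme Ube2c (-0.48 and -0.43). Of 21 other kinases, phosphatases and cyclins, 6 and 4 fell, with Ccna2 (cyclin A2) at -0.65 (adjusted p = 2.62e-07) and -0.47 (adjusted p = 5.4e-05), Ccnf (cyclin F) at -0.54 and -0.56, and Plk4, the kinase of centriole duplication, at -0.44 and -0.35. Of 12 DREAM and B-MYB genes, which act through CHR elements, 2 and 3 fell, with Mybl2 (B-MYB) at -0.53 and -0.40. Of 36 other cytokinesis and spindle genes 11 fell in each comparison, among them Cit (-0.51 and -0.41), Cep55 (-0.62 and -0.52) and Arhgap11a (-0.38 and -0.40). DNA replication, the step before mitosis, was closest to the 52 in the share that fell, with 33 of 42 genes lower in WT_exo and 30 in EKO_exo, at medians of -0.26 and -0.27. Rrm2 (-0.53 and -0.55) and Rrm1 (-0.37 and -0.40), the subunits of ribonucleotide reductase, and Uhrf1 (-0.31 and -0.28) were among them. None of these lists had a called gene in EKO_exo against WT_exo.

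**Figure D5:**
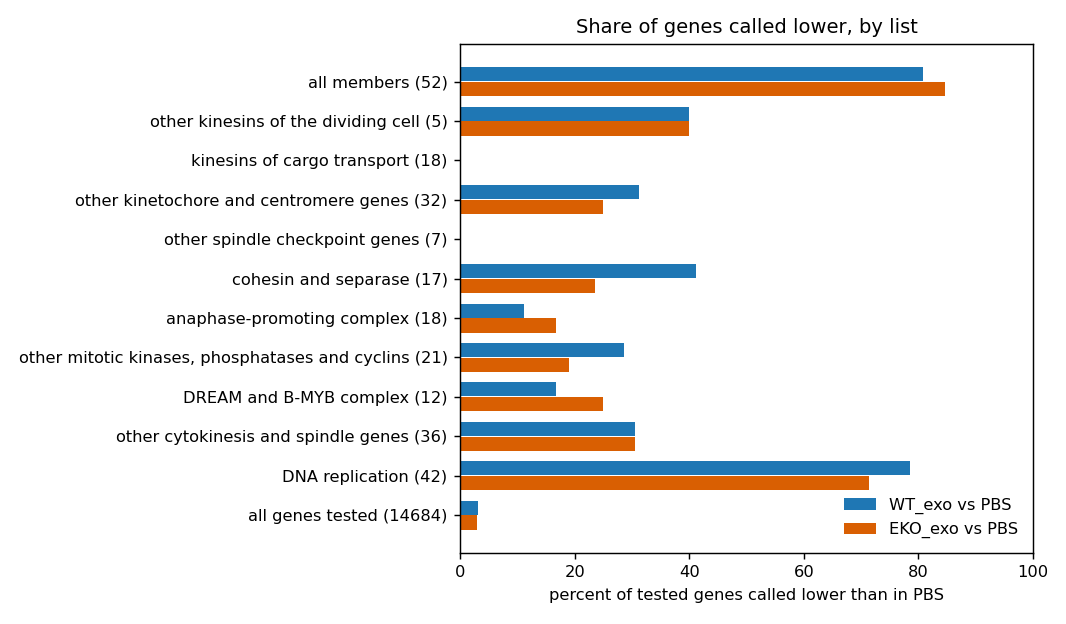
Percent of tested genes called lower than PBS (edgeR adjusted p under 0.05) for the 52 genes, for other lists and for all genes, with the number tested in parentheses. The 52 genes stand at 80.8 and 84.6%, DNA replication is next, cargo kinesins and other checkpoint genes are at 0, and all genes are at 3.14 and 2.87%.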

How the data were processed

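Messenger RNA was sequenced from 9 cultures, 3 per group, with RNA taken by a Qiagen RNeasy kit and libraries made with the Universal Plus mRNA-Seq kit, per the labels' protocols. The authors deposited raw counts, 1 whole number per gene and library. Reads were aligned with STAR 2.7.5c to GRCm38, per the submitters' processing notes. Which tool counted the reads, with which strand setting and annotation, is not given in the sources used here. Symbols and positions came from GENCODE M21, which held all 55536 identifiers, and promoters from RefSeq.

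Counts were analysed with edgeR 4.0.16 in R 4.3.3. filterByExpr (minimum count 10, minimum total 15) left 14684 genes. Libraries were scaled by TMM, 1 model of the 3 groups was fitted to all 9 libraries, and groups were compared by the quasi-likelihood F test (6 residual and 21.1 prior degrees of freedom), with Benjamini-Hochberg adjustment over all genes and a threshold of 0.05. Standard errors and 95% intervals are those of the log2 fold change. CPM are relative to the TMM-scaled library, and CPM per kb divide by the longest APPRIS principal transcript. Each list's count of calls and median is described beside that of all genes and was not tested. Scripts were tested on simulated data. No pair of libraries looked like 1 library deposited again (chi-square per degree of freedom at least 5.21 within groups).

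Members and lists were chosen with earlier results of these data known. Any of the 52 may be named. Of each other list, up to 3 called genes with the smallest p are named. Ncaph2, the single gene of its list, was named after its values were seen, like Spc24, Mis12, Dsn1, Nsl1 and Pmf1. Some cell type markers are not reported here. Alternatives were DESeq2 1.42.0, RLE or no scaling factors, no filter, a mean of at least 5 CPM, only the 2 groups compared, the replicate number as a block, each library left out, and EKO_exo replicates 1 and 3 left out.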

Additional observations from a re-analysis of the deposited data

How the results depend on the processing

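No called member changed direction in any alternative. Over all 17 settings, 31 of 42 calls in WT_exo against PBS and 20 of 44 in EKO_exo against PBS held. Without EKO_exo replicates 1 and 3, members called lower in EKO_exo against PBS dropped from 44 to 22, all genes called from 746 to 249, and the uncalled Kif18a and Cenpa reversed to 0.192 and 0.102. They also reversed with single libraries left out (range -0.132 to 0.071 for Kif18a and -0.193 to 0.016 for Cenpa, with 0.044 and 0.003 for Kif18a and 0.002 for Cenpa in between). With 1 library left out, all genes called ranged from 375 to 687 in EKO_exo against PBS, from 399 to 870 in WT_exo against PBS and from 0 to 6 between the exosome groups, and members called lower from 30 to 43 and from 34 to 43. Between the exosome groups, all genes called were 32 with DESeq2, 28 with no filter, 9 with a mean of at least 5 CPM, 1 with the replicate block and 0 without EKO_exo replicates 1 and 3, against 5 as reported, and DESeq2 called 1 member higher. Fewer libraries were used in those fits that left some out. In the other cases the cause was not tested. Same-numbered libraries did not deviate together (correlations from -0.0203 to 0.0236), so no pairing by number was seen. With 3 libraries per group a weak pairing could be missed. With the replicate block 43, 40 and 0 members and 614, 609 and 1 genes were called for EKO_exo against PBS, WT_exo against PBS and EKO_exo against WT_exo, with Ncapd3 (adjusted p = 0.0743 and 0.0523) not called in either comparison with PBS and Spc25 (0.0651) not called in WT_exo. With 3 cultures per group, members at a few CPM (Ccnb1, Ccnb2, Kif18a, Cenpw) had the widest intervals.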
